A study of Mus musculus with 3 samples.

Results

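The elastic fibre genes were examined as a set of 10 genes chosen by name, *Eln*, *Fbn1*, *Fbn2*, *Mfap2*, *Mfap5*, *Fbln1*, *Fbln2*, *Fbln5*, *Efemp1* and *Efemp2*. All 10 were listed among the 27755 genes of the D10 culture and E14.5 tail tables and among the 25936 genes of the D6 table. An elastic fibre is a core of crosslinked elastin laid down on a scaffold of fibrillin microfibrils. Microfibril-associated glycoproteins bind the fibrillins, fibulins bring tropoelastin to the scaffold, and lysyl oxidases crosslink it. In tendon, elastin and fibrillin lie between and around the collagen fascicles and around the cells.

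There were 3 single-cell RNA-seq libraries, 1 library per group. The D10 culture was grown from mouse embryonic stem cells (mESCs) that carry ScxGFP, a reporter driven by regulatory sequence of the tendon transcription factor *Scx*, and that were kept on MEF feeders before differentiation. Embryoid bodies received the BMP inhibitor LDN-193189 at 500 nM from D0 to D6 and the Wnt agonist CHIR at 5 μM from D2 to D6, which gave the D6 paraxial mesoderm (PM) sample. The culture then received TGFβ1 at 10 ng/mL, the hedgehog agonist SAG at 100 nM and FGF2 at 10 ng/mL from D6 to D10, and the tail was cut whole from E14.5 embryos of ScxGFP mice of the C57BL6 strain. The study used several ScxGFP mESC lines, and the line behind these libraries, its strain and the number of embryos were not given in the sources used here. Dead cells were depleted before capture, and no sort on ScxGFP was described for these libraries.

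Cells numbered 7821 in the culture, 2052 in the tail and 5954 in D6 PM, and their median depths were 5622, 13512 and 8171 UMIs. The libraries shared 4, 10 and 3 cell barcodes in pairs. Levels are given as CPM, the UMIs of a gene per 1000000 UMIs summed over the cells of a cluster code that the authors deposited, with exact 95% Poisson intervals in parentheses. Since 3′ UMIs count transcripts once whatever their length, CPM was not scaled by length, and the capture of different genes can differ. The intervals cover counting error only. With 1 library per group no test between conditions was possible, and since the clusters were made from the same genes, differences between clusters are descriptions. In sums over cells, a lower level per cell and fewer cells that express a gene cannot be told apart. The share of cells with a UMI is given beside the levels and is not a share of cells that express a gene, since free RNA gives UMIs in other cells. At 3000 UMIs per cell, the share over the members other than *Fbln1* reached at most 3.42% in the pluripotent-like cells of the culture, 3.16% in those of D6 PM and 0.8% in the erythroid-like code 12 of the tail. These are not upper limits for cells that should lack the genes. Code 6 of the tail, with 7 of 7 erythroid markers at least 2-fold above the rest, held *Mfap2* at 81.8 and *Fbn2* at 74.9 CPM. In code 12 both were at 2.82 CPM.

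The clusters were checked against marker genes. Code 1 of the culture (2964 cells) and code 1 of the tail (685 cells) are called tendon-like, since 10 and 9 of the 11 tendon markers were at least 2-fold above the rest of their library. The 10 leading genes of code 1 of the tail held 2 mesenchyme markers, *Osr1* and *Osr2*, and no tendon marker, and 5 of 6 mesenchyme markers were 2-fold above the rest, so that these comparisons are of codes by number and tendon-like is only the name of code 1. *Efemp1* and *Lox* were themselves among those leading genes. *Scx* was at 2410 CPM in the culture and 1472 CPM in the tail cluster, and *Tnmd*, a late tendon marker, at 23.6 and 93.0 CPM. *Scx* did not separate tendon-like from cartilage-like cells, since code 4 of the tail (241 cells) held 1905 CPM and code 4 of the culture (855 cells) 1852 CPM. Both codes 4 are called cartilage-like from *Col2a1*, *Acan*, *Col9a1* and others, and both codes 2 (1353 and 186 cells) proliferating. Code 4 of D6 PM (700 cells) is called somite-like, with 6 of 8 somite markers at least 2-fold above the rest. The smooth muscle markers *Acta2*, *Tagln*, *Myl9* and others, which mark cells that also make elastin, were summed at 1141 CPM in the tendon-like cells of the culture, 790.1 in those of the tail, 117 and 112 in the cartilage-like cells and 51.5 in the somite-like cells. They moved with several of the differences below, and their part in them was not tested beyond the split by *Acta2* and *Tagln* given below.

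Promoters of 2 members are shown, since *Mfap2* had the highest level in the tendon-like cells, and *Fbln5* was the member with the largest ratio between D10 and D6. RefSeq promoters (GRCm38.p6) were matched for 7 of the 10 genes, in 12 windows of 250 bases upstream of a start. Entries for *Eln*, *Fbn2* and *Mfap5* were not matched. The windows were searched on both strands for CANNTG, the E-box that basic helix-loop-helix factors such as Scx bind, for the GC box GGGCGG, for the TATA box written as TATAAA, for the SMAD motif CAGACA and for the AP-1 motif TGANTCA. Capitals mark the CANNTG match in each sequence, and both sequences run 5′ to 3′ on the strand of the gene, up to the base before the outermost start. The first lies at chr4:141010174-141010423 on the plus strand and the second at chr12:101819120-101819369 on the minus strand.
*Mfap2*: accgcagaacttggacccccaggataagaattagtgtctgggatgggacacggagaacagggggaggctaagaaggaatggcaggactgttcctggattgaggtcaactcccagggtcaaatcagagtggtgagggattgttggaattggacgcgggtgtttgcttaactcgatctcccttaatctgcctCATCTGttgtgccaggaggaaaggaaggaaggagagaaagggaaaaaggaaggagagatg
*Fbln5*: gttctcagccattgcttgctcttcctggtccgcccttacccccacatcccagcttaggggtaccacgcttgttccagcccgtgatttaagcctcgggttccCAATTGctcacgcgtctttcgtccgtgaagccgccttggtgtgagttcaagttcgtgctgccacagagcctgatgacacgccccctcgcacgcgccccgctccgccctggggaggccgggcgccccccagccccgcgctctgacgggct

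Each of the 2 windows shown held 1 CANNTG, which read CATCTG in the *Mfap2* promoter. In the *Fbln5* promoter it read CAATTG. Of all 32851 RefSeq windows of the same length, 66.2% held a CANNTG. The *Fbln5* window also held 2 matches of GGGCGG, which 32.7% of all windows held, and the *Mfap2* window shown none. The *Mfap2* window shown held 1 CAGACA, found in 17.1% of all windows. The other window of *Mfap2*, nearer the gene body, held no CANNTG and 2 GGGCGG, and that of *Fbln5* no CANNTG, no GGGCGG and 1 CAGACA. None of the 12 windows held a TATAAA, found in 12.4% of all windows. These are matches of letters and say nothing on binding.

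Summed over the 10 genes, the elastic fibre transcripts were highest in the tendon-like cells within culture and tail. The sum was 2765 CPM (2739 to 2790) in the tendon-like cluster of the culture, 2534 (2504 to 2564) in its proliferating cluster and 1917 (1870 to 1965) in its cartilage-like cluster. In the tail the same clusters held 2240.2 (2211 to 2270), 1766 (1727 to 1806) and 1356 (1317 to 1396) CPM. In D6 PM the unnamed code 5 had the highest sum, 1221 CPM (1193 to 1250), and the somite-like cells held 1087 (1061 to 1114). The unnamed codes 9 held 1815 (1691 to 1946) in the culture and 1742 (1689 to 1795) in the tail. The lowest sums were 11.3 CPM (5.84 to 19.7) in the erythroid-like code 12 of the tail and 64.6 (53.1 to 77.9) in code 10 of the tail, whose leading genes include *Slc6a5*, *Slc32a1* and *Neurod6* of nerve cells. The pluripotent-like code 3 of the culture held 129.5 CPM (123 to 136). Code 6 of the tail, also erythroid by its markers, held 353 CPM (317 to 391). Over 3 codes of the culture with 1 or 2 cells each, 6 member UMIs were counted, and these codes are not described further.

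**Figure D1:**
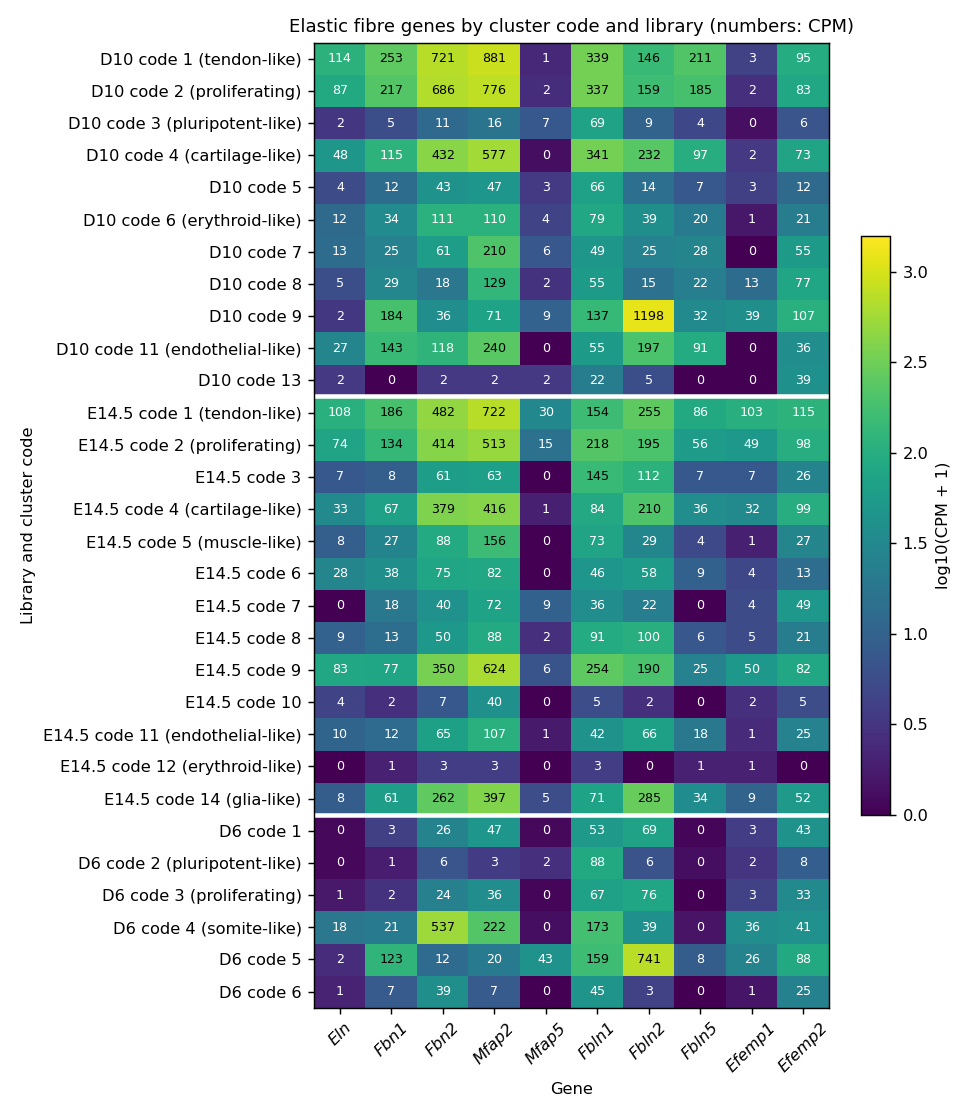
Levels of the 10 elastic fibre genes (columns) in the 30 cluster codes with at least 20 cells (rows, by library), coloured by log10(CPM + 1) and with CPM printed to whole numbers, so that 0 can stand for a level below 0.5. *Mfap2* and *Fbn2* are high in codes 1, 2 and 4 of culture and tail, *Fbln2* peaks at 1198 CPM in code 9 of the culture, and *Efemp1* stands at 103 CPM in the tendon-like cells of the tail and at 3.19 in those of the culture.

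*Eln*, the gene of tropoelastin, was at 114 CPM (109 to 119) in the tendon-like cells of the culture and 108 CPM (102 to 115) in those of the tail. These were its 2 highest levels among the 30 clusters, and they did not differ beyond counting error, with a ratio of 1.06 (0.980 to 1.14). It was at 87.4 CPM (81.9 to 93.2) and 73.9 (66.0 to 82.5) in the proliferating cells of culture and tail, at 47.8 (40.7 to 55.8) and 33.0 CPM (27.1 to 39.8) in the cartilage-like cells, and at 17.8 CPM (108 UMIs) in the somite-like cells of D6 PM. *Eln* was the member with the ratio nearest to 1 between the tendon-like cells of culture and tail. Code 9 of the tail held 83.1 CPM (72.0 to 95.3), next to the proliferating cells of both libraries in the order of levels and not beyond counting error from either. The highest level among the other clusters was 27.6 CPM (18.3 to 39.9) in code 6 of the tail. In that code 7 of 7 erythroid markers were at least 2-fold above the rest of the library. The median over all 30 was 8.07 CPM, and 2 clusters of the tail, codes 7 and 12, held no *Eln* UMI. At 3000 UMIs per cell, 21.7% of the tendon-like cells of the culture and 22.6% of those of the tail had an *Eln* UMI, against 30.2% and 59.9% before thinning, when the cells of the tail were deeper. The share was 0.833% in the pluripotent-like cells of the culture and 0 in the 125 erythroid-like cells of code 12 of the tail, which should lack elastin. Code 6 of the tail, also erythroid by its markers, should lack it as well. Its 27.6 CPM stood beside 17.8 CPM (14.6 to 21.5) in the somite-like cells, with overlapping intervals, so that a level of this size need not mean expression.

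The fibrillins form the microfibrils, *Fbn1* throughout life and *Fbn2* mostly in the embryo. *Fbn1* was at 253 CPM (245 to 261) in the tendon-like cells of the culture, 186 (178 to 194) in those of the tail and 20.7 (126 UMIs) in the somite-like cells of D6 PM. *Fbn2* was at 721 (708 to 734), 482 (468 to 495) and 537 CPM (519 to 556) in the same clusters. Thus *Fbn2* was already high at D6, while *Fbn1* was low there. At 3000 UMIs per cell, 74.3% of the somite-like cells had an *Fbn2* UMI and 6.44% an *Fbn1* UMI. In the tendon-like cells the shares were 81.1% and 47.1% in the culture and 68.7% and 39.5% in the tail. In the cartilage-like cells *Fbn1* was at 115 CPM in the culture and 66.5 in the tail, and *Fbn2* at 432 and 379 CPM.

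The ratio of *Fbn2* to *Fbn1* UMIs was taken within the same cells, where the total cancels. A ratio between genes depends on how well each is captured, so that only its change between clusters is described. It was 25.9 (21.7 to 31.2) in the somite-like cells of D6 PM, 2.85 (2.75 to 2.96) in the tendon-like cells of the culture and 2.59 (2.46 to 2.73) in those of the tail. The proliferating cells were at 3.17 (3.02 to 3.32) and 3.08 (2.81 to 3.39). The cartilage-like cells were above the tendon-like cells in both libraries, at 3.76 (3.36 to 4.22) in the culture and 5.70 (4.94 to 6.61) in the tail. Among 24 clusters with at least 50 UMIs of both genes together, the interval lay above 1 in 21 and below 1 in 2. The interval lay below 1 in code 9 of the culture, at 0.198 (0.108 to 0.340), and in code 5 of D6 PM, at 0.0992 (0.0767 to 0.126). In code 11 of the culture, at 0.830 (0.528 to 1.30), it held 1.

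**Figure D2:**
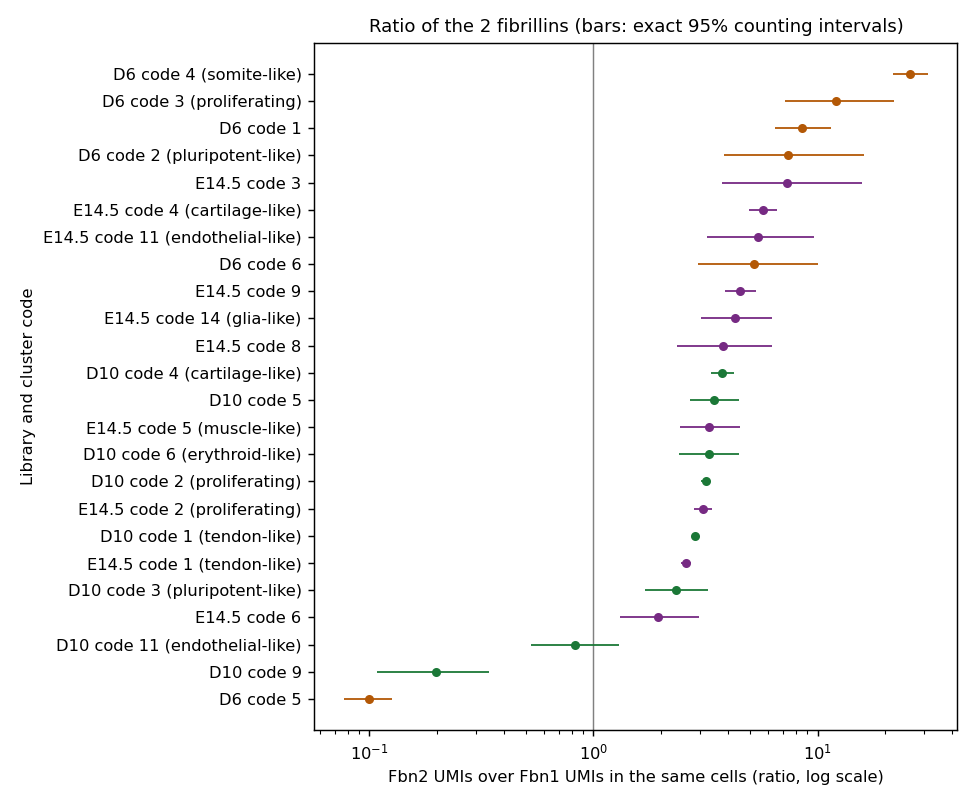
*Fbn2* UMIs over *Fbn1* UMIs in the same cells (horizontal axis, log scale) for the 24 clusters with at least 50 UMIs of both genes together, with exact 95% counting intervals; green, D10 culture; purple, E14.5 tail; orange, D6 PM. The somite-like cells of D6 PM stand at 25.9 and the tendon-like cells at 2.85 and 2.59. The intervals of code 9 of the culture and code 5 of D6 PM lie below 1, and that of code 11 of the culture holds 1.

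*Mfap2* and *Mfap5* encode the 2 microfibril-associated glycoproteins, MAGP1 and MAGP2. *Mfap2* was the most abundant member in the tendon-like cells, with 881 CPM (866 to 895) in the culture and 722 (705 to 738) in the tail, and a UMI in 89.1% and 84.1% of cells at 3000 UMIs. It was at 222 CPM (1351 UMIs) and in 45.2% of the somite-like cells of D6 PM. *Mfap5* was low everywhere. It was at 30.3 CPM (27.0 to 33.9, 307 UMIs) in the tendon-like cells of the tail and at 1.33 CPM (22 UMIs in 2964 cells) in those of the culture. Its highest level was 42.7 CPM (37.6 to 48.3) in code 5 of D6 PM, which held 90.0% of the *Mfap5* UMIs of that library. In the culture, 51.7% of its 151 UMIs lay in the pluripotent-like code 3, at 6.65 CPM. After thinning, 0.462% of the tendon-like cells of the culture had an *Mfap5* UMI, 1.76% of its pluripotent-like cells and 5.60% of the tendon-like cells of the tail. In the tendon-like cells of the culture this share lay below that of the pluripotent-like cells, and it was not read as expression.

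The fibulins are 5 of the 10 members. *Fbln5*, which binds tropoelastin and is needed for elastic fibres to form, was at 211 CPM (204 to 218) in the tendon-like cells of the culture and 85.7 (80.1 to 91.6) in those of the tail. In the somite-like cells of D6 PM 3 UMIs were counted among 6078310, 0.494 CPM, and none of the 606 cells kept at 3000 UMIs had one left. *Efemp2*, the fibulin 4 gene, whose product binds lysyl oxidase, was level by comparison, at 95.4 CPM (90.7 to 100.2) in the culture, 115 (108 to 121) in the tail and 41.0 (249 UMIs) in the somite-like cells. *Efemp1*, the fibulin 3 gene, was at 103 CPM (97.2 to 110) in the tendon-like cells of the tail, 35.5 (31.0 to 40.6) in the somite-like cells of D6 PM and 3.19 (53 UMIs) in the tendon-like cells of the culture. Thus *Efemp1* was present in the somite-like cells at D6 and in the tail and nearly missing from the tendon-like cells at D10. *Mfap5* was likewise low in those cells, but at D6 its UMIs lay in code 5 and not in the somite-like cells.

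*Fbln1* and *Fbln2*, which bind fibronectin, proteoglycans and basement membrane proteins beside elastic fibres, are described last. *Fbln1* was at 339 CPM (330.3 to 348) in the tendon-like, 337 (326 to 348) in the proliferating and 341 (321 to 361) in the cartilage-like cells of the culture, which were its 3 highest levels and did not differ beyond counting error. In the tail it was at 154, 218 and 83.8 CPM in the same order. *Fbln1* was also at 69.0 and 87.9 CPM in the pluripotent-like cells of the culture and of D6 PM, where a UMI was found in 18.9% and 21.4% of the thinned cells, against 0.833% and 0.109% for *Eln*. *Fbln2* was at 146 CPM (140.4 to 152) in the tendon-like cells of the culture, 255 (245 to 265) in those of the tail and 39.0 (237 UMIs) in the somite-like cells. Its highest levels were 1198 CPM (1098 to 1305) in code 9 of the culture (53 cells) and 741 (719 to 763) in code 5 of D6 PM (662 cells).

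**Figure D3:**
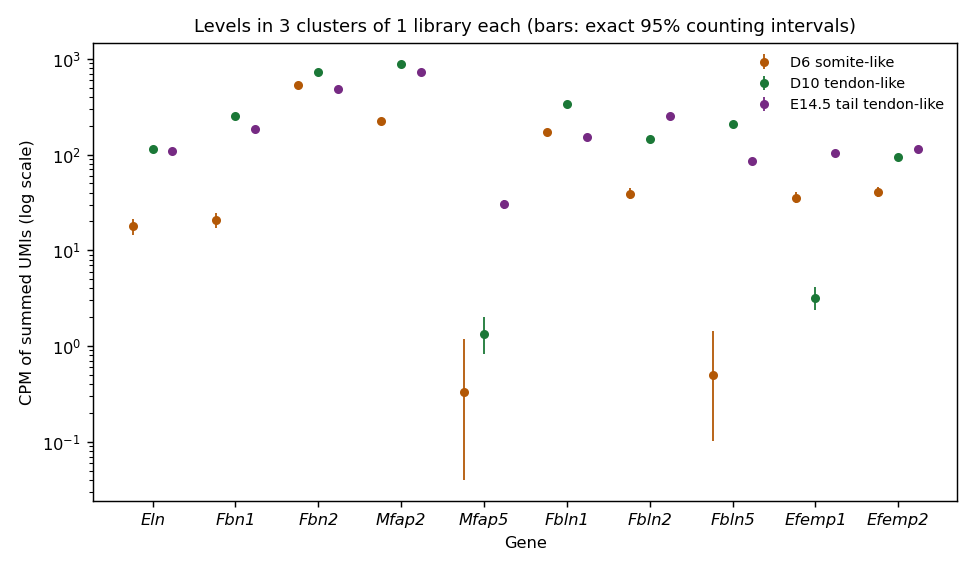
CPM (vertical axis, log scale) of the 10 genes (horizontal axis) in the somite-like cells of D6 PM (orange), the tendon-like cells of the D10 culture (green) and the tendon-like cells of the E14.5 tail (purple), 1 library each, with exact 95% Poisson intervals. *Eln* and *Fbn1* stand at 17.8 and 20.7 CPM at D6 and above 100 in both other clusters, *Fbn2* is high in all 3, *Fbln5* is at 0.494 CPM at D6, and *Efemp1* is at 3.19 CPM in the culture.

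The tendon-like cells of the culture were compared with the somite-like cells of D6 PM, which sets the levels before and after the tenogenic steps side by side. Higher or lower here means a ratio of CPM of at least 2 either way, among genes detected in 10% or more of the cells on 1 of the 2 sides. Of the 10 members, 9 passed this filter, 6 were higher at D10 and 1 was lower. Among the higher, *Fbln5* passed through the D10 side alone, and the lower one, *Efemp1*, through the D6 side alone. Of all 8934 genes 20.7% were called either way, 9.88% higher and 10.8% lower. The median gene was lower at D10 by 0.17 on the log2 scale. Relative to that gene, 7 members were higher and 1 lower, and higher genes made up 58.7% of all calls in place of 47.8%. The median log2 ratio of the 9 members was 1.91, beside -0.17 over all genes.

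*Fbln5* had the largest ratio of the members, with 427 times the D6 level (146 to 2074). It passed the filter through the D10 side alone, its denominator is 3 UMIs, and after thinning to 3000 UMIs per cell, with no UMI left at D6 and a floor of 3 counts over the cluster, it was at least 123-fold higher. *Fbn1* was 12.2-fold higher (10.2 to 14.7) and *Eln* 6.42-fold (5.28 to 7.86). *Mfap2* was 3.96-fold higher (3.75 to 4.19), *Fbln2* 3.75-fold (3.28 to 4.30) and *Efemp2* 2.33-fold (2.04 to 2.67). *Fbln1* at 1.96 (1.83 to 2.09) and *Fbn2* at 1.34 (1.29 to 1.40) stayed under 2-fold with intervals above 1. *Efemp1*, which passed the filter through the D6 side alone, was lower, at 0.0899 of the D6 level (0.0653 to 0.122). *Mfap5*, with 22 UMIs against 2, did not pass the filter.

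Of the 36 genes of the pathway lists in these tables, 22 passed the filter, 19 were higher at D10 and 1 was lower. *Lox*, *Loxl3* and *Adamtsl2* were among those that passed through the D10 side alone. The shares over all genes are the 9.88% and 10.8% given above. All 4 lysyl oxidases that passed the filter were higher, *Lox* and *Loxl3* having passed through the D10 side alone. *Lox*, the main crosslinking enzyme of elastin and collagen, was at 292.5 CPM against 4.44 (65.9-fold, 45.2 to 100.04), *Loxl3* at 26.9 against 0.494 (3 UMIs), *Loxl2* 4.34-fold higher and *Loxl1*, which binds fibulin 5, 3.81-fold. Of the 20 other microfibril and fibre proteins 11 passed the filter, 8 were higher and 1 was lower. Among them *Adamtsl2*, a protein that binds microfibrils and LTBP1, was at 85.3 CPM against 1.48 (9 UMIs), *Mfap4* at 506 against 64.5, and *Thsd4*, also called *Adamtsl6*, which binds fibrillin 1, at 7.90 against 31.8. The elastin-degrading proteases *Mmp2*, *Mmp14* and *Ctsk* were 4.77, 2.57 and 20.9-fold higher, and all 4 integrin genes that passed (*Itgav*, *Itgb5*, *Itgb1* and *Itga5*) were 2.004 to 4.62-fold higher. *Mmp7* was not in the tables used here.

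The tendon-like cells of the culture were then compared with those of the tail, code 1 with code 1. The mesenchyme markers also differed between these codes, with *Osr2* at 0 UMIs in the culture and 154 CPM in the tail, *Osr1* at 15.7 and 138, *Prrx1* at 147 and 585, and a sum of all 6 of 849.7 and 2038 CPM, and their part in the results was not tested. All 10 members passed the filter, *Efemp1* and *Mfap5* through the tail alone, 2 were higher in the culture and 2, these same genes, lower, beside 19.4% of all 10418 genes called either way, 5.76% higher and 13.6% lower. The median gene was lower in the culture by 0.21 on the log2 scale. Relative to it the members' counts were the same, while higher genes made up 42.5% of all calls in place of 29.7%. The median log2 ratio of the members was 0.18, beside -0.21 over all genes.

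*Fbln5* was 2.46-fold (2.28 to 2.65) and *Fbln1* 2.20-fold (2.08 to 2.33) higher in the culture. *Efemp1* was at 0.0309 of the tail level (0.0230 to 0.0407) and *Mfap5* at 0.0437 (0.0270 to 0.0674). Of the other members *Fbn2* was at 1.496 (1.45 to 1.55), *Fbn1* at 1.36 (1.29 to 1.44) and *Mfap2* at 1.22 (1.19 to 1.26). *Efemp2* at 0.832 (0.770 to 0.898) and *Fbln2* at 0.574 (0.542 to 0.607) lay on the other side of 1. At 3000 UMIs per cell the share of tendon-like cells of culture and tail with a UMI was 34.7% and 17.0% for *Fbln5*, 60.0% and 34.7% for *Fbln1*, and 0.886% and 19.6% for *Efemp1*. The order of culture and tail in these shares was that of the CPM.

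In all 3 cluster pairs 9 of the 10 members lay on the same side of 1, *Fbln2* being the exception, though for *Eln* in the tendon-like and *Mfap5* in the cartilage-like pair the interval held 1. The share of all genes that lay on the same side in all 3 pairs is not given here, so that this count is not a result about the members. In the proliferating cells *Fbln5* was at 185 CPM in the culture and 56.4 in the tail (3.28-fold, 2.87 to 3.76), and in the cartilage-like cells at 96.5 and 35.7 (2.71-fold, 2.18 to 3.37). *Efemp1* was at 1.68 CPM against 49.4 in the proliferating and at 2.41 (8 UMIs) against 32.0 in the cartilage-like cells. Of the 10 members that passed in the proliferating cells 1 was higher and 2 were lower. Both lower members, *Efemp1* and *Mfap5*, passed through the tail alone. Of all genes 19.1% were called either way, 5.5% higher and 13.6% lower. Of the 9 that passed in the cartilage-like cells 2 were higher and 1 lower, and this 1, *Efemp1*, passed through the tail alone. Of all genes 17.9% were called there, 4.86% higher and 13% lower. Relative to the median gene the members' counts were the same in both, while higher genes made up 40.6% of all calls in place of 28.8% in the proliferating and 40.1% in place of 27.2% in the cartilage-like cells. *Fbln1* was 4.07-fold higher (3.57 to 4.66) in the cartilage-like cells of the culture and at 1.55 (1.44 to 1.67) in the proliferating cells. *Fbln2* was at 0.818 (0.753 to 0.889) in the proliferating and at 1.11 (0.997 to 1.23) in the cartilage-like cells, so that its low ratio was not shared by the cartilage-like cells. These 3 comparisons use the same libraries, and whether the ratios differ between cluster pairs was not tested.

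**Figure D4:**
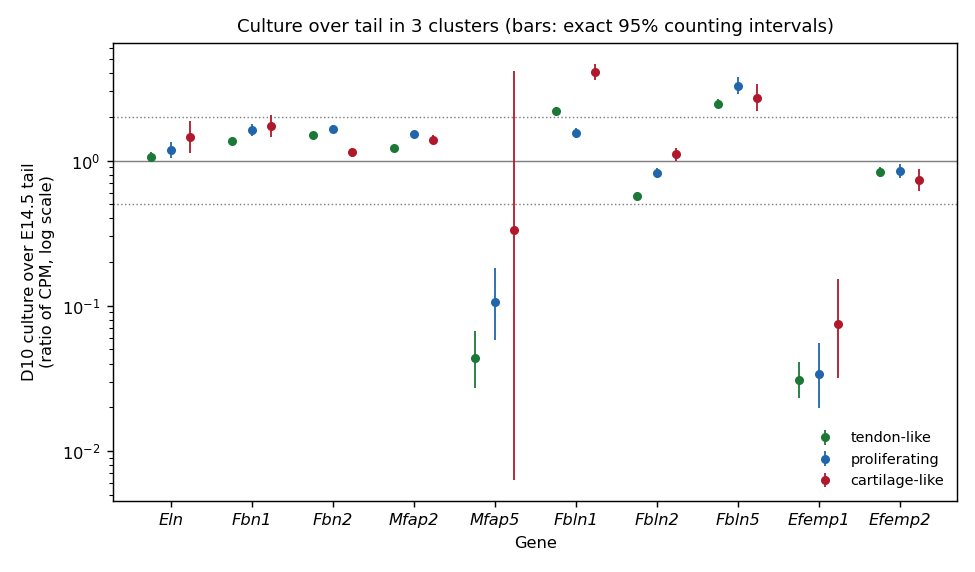
Ratio of CPM in the D10 culture to that in the E14.5 tail (vertical axis, log scale) for the 10 genes in tendon-like (green), proliferating (blue) and cartilage-like cells (red), with exact 95% intervals; the solid line marks a ratio of 1 and the dotted lines 2-fold. *Fbln5* lies above the upper dotted line and *Efemp1* far below the lower one in each pair, and the *Mfap5* ratio of the cartilage-like cells rests on 1 and 3 UMIs.

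The ratio of *Fbln5* to *Eln* within the same cells also differed between the libraries. It was 1.85 (1.75 to 1.96) in the tendon-like, 2.11 (1.96 to 2.29) in the proliferating and 2.02 (1.66 to 2.46) in the cartilage-like cells of the culture. In the tail it was 0.794 (0.726 to 0.869), 0.7625 (0.643 to 0.904) and 1.08 (0.827 to 1.42), and in the somite-like cells of D6 PM 0.0278 (0.00564 to 0.0834). The ratio of *Efemp2* to *Efemp1* was 29.8 (22.7 to 40.0) in the tendon-like cells of the culture, 1.11 (1.02 to 1.21) in those of the tail and 1.15 (0.957 to 1.39) in the somite-like cells. That of *Fbln1* to *Fbln2* was 2.32 (2.21 to 2.43) in the tendon-like cells of the culture and 0.604 (0.567 to 0.644) in those of the tail.

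Of the 36 pathway genes, 24 passed the filter in the tendon-like pair, 2 were higher in the culture and 6 lower, beside 5.76% and 13.6% of all genes. The crosslinking enzymes were under 2-fold, with *Lox* at 292.5 CPM in the culture and 239.6 in the tail and *Loxl2* at 275 and 152. *Adamtsl2*, which passed the filter through the culture alone, was 27.0-fold higher there (19.0 to 39.6), and *Mmp2* was 2.45-fold higher. *Emilin2*, an elastin microfibril interface protein, passed through the tail alone, with 1.02 CPM (17 UMIs) in the culture and 32.6 in the tail. Its relative *Emilin1* was at 346 and 195. The sides through which the other pathway genes passed are not given here. *Ltbp1*, *Hmcn1*, *Adamts17*, *Thsd4* and *Ctsk* were the other lower genes, at 0.242 to 0.498 of the tail. In the proliferating pair *Lox* was 2.40-fold and *Loxl2* 2.65-fold higher in the culture, among 5 higher and 6 lower of 26 pathway genes, beside 5.5% and 13.6% of all genes. In the cartilage-like pair *Lox* was 5.59-fold (4.47 to 7.06) and *Loxl2* 3.53-fold higher in the culture, among 4 higher and 4 lower of 24 pathway genes that passed, beside 4.86% and 13% of all genes.

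Cartilage-like cells were compared with tendon-like cells within each library. In the culture 8 members passed the filter, 3 were lower in the cartilage-like cells and none higher, beside 4.9% of all 7077 genes called either way, 3.36% lower and 1.54% higher. *Eln* was at 0.419 of the tendon-like level (0.355 to 0.493), *Fbn1* at 0.454 (0.408 to 0.505) and *Fbln5* at 0.458 (0.407 to 0.513). In the tail all 10 passed, *Mfap5* through the tendon-like cells alone. Of these, 5 were lower and none higher, beside 9.93% of all 10654 genes, 6.28% lower and 3.65% higher. *Eln* was at 0.305 (0.248 to 0.372), *Fbn1* at 0.358 (0.310 to 0.412), *Fbln5* at 0.416 (0.340 to 0.505), *Efemp1* at 0.310 (0.251 to 0.379), and *Mfap5* with 3 UMIs at 0.0299 (0.00614 to 0.0882). *Fbn2* and *Mfap2* were lower by less than 2-fold in both, at 0.599 and 0.655 in the culture and 0.788 and 0.576 in the tail. Of the 8 members that passed in the culture, the interval lay above 1 for *Fbln2*, at 1.59 (1.46 to 1.73), and held 1 for *Fbln1*, at 1.01 (0.943 to 1.07). *Fbln2* in the tail was at 0.825 (0.757 to 0.897). Of the pathway genes 1 was higher and 2 were lower of 22 that passed in the culture, and 4 were higher and 5 lower of 25 in the tail. *Lox* was at 0.531 in the culture and at 0.116 (0.0932 to 0.143) in the tail, *Ctsk* at 0.109 and 0.108, and *Thsd4* was 4.87 and 2.63-fold higher in the cartilage-like cells. *Loxl3* was 2.22-fold higher in the cartilage-like cells of the tail, against the direction of *Lox*.

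The proliferating cells were compared with the tendon-like cells of the same library. These codes differed in more than the proliferation markers. The cartilage markers were summed at 2244 CPM in code 2 and 533 in code 1 of the tail, and at 1751 and 1142 in the culture. The tendon markers were summed at 7539 and 9833 CPM in the tail and 11088 and 12385 in the culture. The part of these markers in the ratios below was not tested. In the culture 8 members passed the filter and none was called 2-fold either way, beside 4.4% of all 8077 genes, 4.21% higher and 0.186% lower. Their ratios ran from 0.767 for *Eln* to 1.09 for *Fbln2*. In the tail all 10 passed, none was higher, and *Efemp1* at 0.478 (0.411 to 0.554) and *Mfap5* at 0.495 (0.373 to 0.649) were called lower, beside 8.23% of all 11298 genes, 5.47% higher and 2.76% lower. The median gene of this comparison was lower by 0.11 on the log2 scale, and relative to it no member was called. *Eln* was at 0.685 (0.603 to 0.776), *Fbn1* at 0.722 and *Fbln5* at 0.657, and the median log2 ratio of the members was -0.48, beside -0.11 over all genes. *Fbln1* was the one member with an interval above 1 in the tail, at 1.41 (1.30 to 1.53).

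Code 9 of the tail had the third highest sum of the members in that library. Its leading genes were *Ctsg*, *C1qb*, *Cpa3* and other genes of immune cells, while it also held *Twist2* at 487 CPM and *Twist1* at 1287, genes of mesenchyme, so that it was left unnamed. All 10 members passed the filter, *Mfap5* through the tendon-like cells alone. Of these, 4 were lower than in the tendon-like cells and none higher, beside 16% of all 11091 genes, 8.14% lower and 7.85% higher. With cells thinned to 3000 UMIs, 1 member was lower, beside 11.3% of all genes, and *Mfap2* was at 1.07 of the tendon-like level in place of 0.865. The cells were split by the macrophage markers *C1qa*, *C1qb*, *Csf1r*, *Lyz2*, *Fcer1g* and *Tyrobp* after the values were seen. The 35 cells with 3 or more UMIs of these markers held the members at 437 CPM in sum (392 to 484), and the 122 other cells at 2403 (2328 to 2479), which is above the 2240.2 CPM of the tendon-like cells. Without the 35 cells 1 member was higher than in the tendon-like cells and 2 were lower, beside 11.2% of all genes called either way. *Fbln1* was at 340.1 CPM against 154 (2.21-fold), *Mfap2* at 867 against 722, and *Eln*, *Fbn2* and *Fbln2* at 1.03, 1.02 and 1.05 of the tendon-like level. *Fbln5* at 32.8 CPM against 85.7 and *Mfap5* at 8.67 against 30.3 were lower, *Mfap5* again having passed through the tendon-like cells alone.

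**Figure D5:**
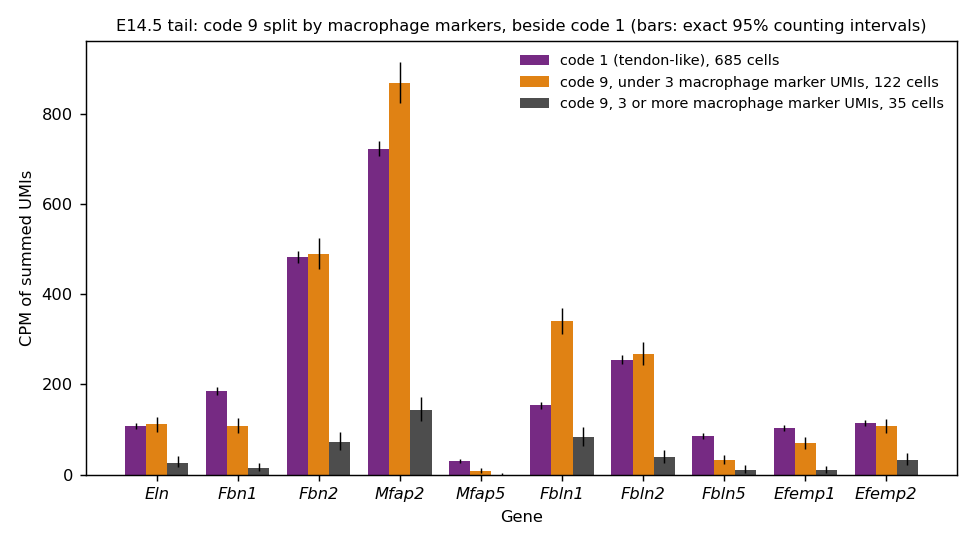
CPM (vertical axis) of the 10 genes (horizontal axis) in the E14.5 tail, in code 1 (tendon-like, purple), in the 122 cells of code 9 with under 3 macrophage marker UMIs (orange) and in the 35 cells with 3 or more (grey), with exact 95% Poisson intervals. The orange bars reach or pass the purple ones for *Eln*, *Fbn2*, *Mfap2*, *Fbln1* and *Fbln2*. They stay below them for *Fbn1*, *Mfap5*, *Fbln5*, *Efemp1* and, with overlapping intervals, *Efemp2*, and the grey bars are the lowest for each gene.

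Code 9 of the culture and code 5 of D6 PM held a different mixture of the members. Code 5 of D6 PM had *Col1a1* at 3858 CPM and *Prrx1* at 444, and its 10 leading genes held the immune genes *Ccl5*, *Lyz2*, *Trem2* and *Ccl8* beside the matrix and signalling genes *Col5a3*, *Lox*, *Thbs2*, *Inhba*, *Grem1* and the protease gene *Ctsk*, and code 9 of the culture had *Col1a1* at 2166.1 and *Prrx1* at 305. Both were left unnamed, since immune genes stood among their leading genes. *Fbln2* made up the greatest part of their members, at 741 and 1198 CPM, with *Fbn1* at 123 and 184 CPM. *Fbn2* was at 12.2 and 36.4 CPM and *Eln* at 1.53 (9 UMIs) and 2.28 (1 UMI). The cells with 3 or more macrophage marker UMIs, 14 and 5 in number, held 0.222% and 3.51% of the member UMIs, so that most of the values came from the other 648 and 48 cells. In the latter *Fbln2* was at 770.2 CPM (747 to 793) and 1321 (1209 to 1441). *Mfap5* was at 44.4 CPM in those of D6 PM.

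Within the tendon-like cells the members were spread over many cells. After thinning to 3000 UMIs the median cell had UMIs of 4 of the 10 members (quartiles 3 and 5) in culture and tail alike, with a mean of 8.43 member UMIs in the culture and 6.77 in the tail. In the culture 9 of 2595 cells, and in the tail 8 of 678, had none. *Eln*, *Fbn1* and *Fbn2* were found together in 9.09% (8.02 to 10.3) of the tendon-like cells of the culture, where the product of the single shares is 8.29%, and in 7.08% (5.27 to 9.28) of those of the tail, with a product of 6.13%. Among the tendon-like cells of the culture, the 923 cells with an *Acta2* or *Tagln* UMI had an *Fbln5* UMI in 44.3% (41.1 to 47.6) and an *Fbn1* UMI in 53.6% (50.4 to 56.9), the 1672 other cells in 29.4% (27.2 to 31.6) and 43.4% (41.0 to 45.8). For *Eln* the shares were 20.8% (18.2 to 23.6) and 22.2% (20.3 to 24.3), and in the tail 29.1% (21.6 to 37.6) in 134 cells and 21.0% (17.6 to 24.6) in 544. Thus the share of cells with *Fbln5* and *Fbn1* was higher in the culture cells with these smooth muscle UMIs, that of cells with *Mfap2* was lower, at 86.7% (84.3 to 88.8) and 90.4% (88.9 to 91.7), and for *Fbn2*, at 80.1% and 81.6%, the intervals overlapped. For *Eln* they overlapped in both libraries. In the tail the intervals also overlapped for *Fbln5*, at 20.1% (13.7 to 27.9) with and 16.2% (13.2 to 19.5) without these UMIs, and for *Fbn1*, at 36.6% (28.4 to 45.3) and 40.3% (36.1 to 44.5). In the proliferating cells of the culture *Mfap2* stood at 88.7% (85.2 to 91.7) with and 87.8% (85.5 to 89.8) without these UMIs, with overlapping intervals. There *Fbln5* was again higher with these UMIs, at 39.8% and 27.1%, as was *Fbn1*, at 52.4% and 39.6%.

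Across the 27 clusters with at least 50 cells, *Eln*, *Fbn2* and *Mfap2* were most alike. Pearson's r of log2(CPM + 10) was 0.90 for *Eln* with *Fbn2*, 0.90 for *Eln* with *Mfap2* and 0.91 for *Fbn2* with *Mfap2*, and each of the 3 had the other 2 among the 3 genes most like it of 8459 genes. The clusters share 3 libraries and their depths, so that r is a description. The lists of most alike genes depended on the clusters used, and with at least 100 cells per cluster *Eln* and *Fbn2* kept 1 of their 3 genes each and *Mfap2* none. The third gene was *Cdh11* for *Eln* (0.90), *Col26a1* for *Fbn2* (0.93) and *Mfap4* for *Mfap2* (0.90). *Fbn1* was most like *Oaf* (0.94), *Col5a1* and *Lhfp*, *Fbln1* like *Dse* (0.91), *Sdc2* and *Ptgfrn*, and *Fbln2* like *Antxr1* (0.88), *Angptl2* and *Itpripl2*. *Fbln5* was most like *Fgf18* (0.90), *Naalad2* and *Sema3a*, *Efemp1* like *Cd248* (0.92), *Emilin2* and *Adamts2*, and *Efemp2* like *Gpx8* (0.93), *Parva* and *Bicc1*. *Mfap5* did not reach 50 CPM in any cluster and was not ranked. The least alike members were *Fbln5* and *Efemp1*, with r of 0.23.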

How the data were processed

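Single-cell RNA-seq was analysed in 3 libraries, 1 each of D6 PM, the E14.5 tail and the D10 culture. The authors deposited unnormalized counts, the number of UMIs of each gene in each cell, from 10x 3′ v3 libraries run through Cell Ranger and Seurat 3.0 with multi-mapping reads ignored. The authors removed cells in which over 7.5% of transcripts were mitochondrial, and the 2% of cells at either extreme. The genome build of these counts was not given in the sources used here. Each table carries the authors' cluster code of every cell.

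UMIs were summed per code and library and divided by all UMIs of those cells to give CPM, with exact Poisson intervals at 95%. Ratios have exact conditional binomial intervals and shares exact Clopper-Pearson intervals. For a count of 0, the floor was 3 counts per cluster. A gene entered a comparison if at least 10% of the cells of either side had a UMI, and 2-fold was the limit. For shares, each cell was thinned to 3000 UMIs and shallower cells (1157, 100 and 1006) were left out. Cells that Scrublet called doublets (116, 9 and 81, with 6% expected) were kept. Codes were named from marker lists over the rest of the library, and codes under 20 cells were not used.

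The genes named are the 10 members, the genes of 4 pathway lists, and for each member the 3 genes with the highest Pearson correlation of log2(CPM + 10) over clusters of at least 50 cells, among genes with at least 50 CPM in 1 of them. Members and lists were chosen with earlier results of these data known. Alternatives varied the cells summed, the total, the scaling, the fold, the filter and the depth. Python 3.11.15, NumPy 2.4.6, SciPy 1.17.1, pandas 2.3.3, Scanpy 1.11.5 and Matplotlib 3.10.9 were used, with random seed 1.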

Additional observations from a re-analysis of the deposited data

Results flagged for a closer look

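*Fbln2* was picked out because the same pair of clusters gave ratios on opposite sides of 1 in culture and tail. Its cartilage-like over tendon-like ratio was 1.59 (1.46 to 1.73) in the culture, from 232 against 146 CPM, and 0.825 (0.757 to 0.897) in the tail, from 210.1 against 255 CPM. Its proliferating over tendon-like ratio was 1.09 (1.02 to 1.16) in the culture and 0.764 (0.706 to 0.826) in the tail. With 1 library each, the difference between culture and tail was not tested.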

How the results depend on the processing

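Leaving out called doublets, leaving out cells under 1000 genes, or taking mitochondrial, ribosomal protein and haemoglobin genes out of the total moved none of the 89 ratios of members beyond their counting intervals. The mean of single-cell CPM moved 18, scaling to the median gene 24, and thinning to 3000 UMIs per cell moved 25 of those it could give. Levels and shares depended more on the setting, since taking those genes out of the total moved 20 of 30 levels, the mean of single-cell CPM 12 of 30, and thinning to 5000 UMIs 26 of 30 shares of cells, while leaving out doublets moved no level. Thinning turned *Mfap2* in code 9 of the tail over the tendon-like cells to 1.07, and leaving out its cells with 3 or more macrophage marker UMIs, an alternative chosen after seeing the data, turned *Eln* to 1.03, *Fbn2* to 1.02, *Mfap2* to 1.20 and *Fbln2* to 1.05. With 3-fold in place of 2-fold, the members called were 2 for the tendon-like pair of culture and tail (9.78% of all genes), 0 and 3 for cartilage-like over tendon-like cells in culture and tail (2.02% and 5.26%), 0 for proliferating over tendon-like cells in the tail (3.82%) and 2 for code 9 of the tail (9.34%). With 1.5-fold they were 7 for the proliferating pair of culture and tail (37.6% of all genes) and 6 for cartilage-like over tendon-like cells in the culture (12.8%). For proliferating over tendon-like cells in the tail the mean of single-cell CPM gave 1 (9.25% of all genes), the median gene 0 (8.05%) and thinning 1 (10%), and for code 9 of the tail thinning gave 1 (11.3%). The cause was not tested. The other 80 counts stayed within 1.5 times. With at least 100 cells per cluster, 7 of 9 members shared fewer than 2 of their 3 most alike genes with those named, and with log2(CPM + 1) 3 of 9, so that those names depend on the setting. No paired analysis was possible because each group is 1 library, and for the same reason no library could be left out. Depth limits *Mfap5* and *Efemp1* in the culture and *Fbln5* in the somite-like cells, which rest on few UMIs.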

Other observations

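Every cluster with at least 20 cells held UMIs of the members, and 4 clusters of named cell types not described above are given here. They are not the next in order of their sums, since codes 6, 7 and 8 of the culture and codes 3, 6 and 8 of the tail held 353 to 473 CPM. Code 14 of the tail (38 cells), with the glial genes *Foxd3* and *Sox10* among its leading genes, held 1184 CPM of the 10 genes in sum (1101 to 1271). *Fbln2* was at 285 CPM (245 to 329.9) there, not beyond counting error from the 255 CPM of code 1 of the tail, with *Mfap2* at 397 and *Fbn2* at 262 CPM and *Eln* at 7.84. The endothelial-like code 11 of the culture (58 cells) held 907 CPM (807 to 1015), with *Mfap2* at 239.5, *Fbln2* at 197 and *Fbn1* at 143 CPM, while the endothelial-like code 11 of the tail (71 cells) held 347 CPM (317 to 379), with *Mfap2* at 107, *Fbln2* at 65.7 and *Fbn1* at 12.002 CPM. The muscle-like code 5 of the tail (121 cells) held 414 CPM (387 to 442), of which *Mfap2* had 156. These levels were not compared by a test.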
